A study of Mus musculus with 10 samples.

Results

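Olfactory sensory neurons (OSNs) are replaced throughout life, and the stage a neuron has reached can be read from the genes it expresses. The markers described here are 7 of the 24421 genes in the count table, and all 7 passed the filter on low counts that left 17197 genes for testing. They were chosen by name, as known markers, with earlier results of these data in view: 5 mark immature OSNs (Gap43, Gng8, Dcx, Stmn2 and Tubb3) and 2 mark mature OSNs (Omp and Stoml3). The counts come from RNA-seq of the whole main olfactory epithelium (MOE), the lining of the nasal cavity that holds the OSNs, taken at postnatal day 14 from mice of the C57BL/6 strain. The libraries comprised 3 from wild-type (WT) mice, 3 from mice heterozygous (het) and 4 from mice homozygous (homo) for a deletion of both TAAR enhancer 1 and TAAR enhancer 2. These enhancers lie in the cluster of the Taar genes, which encode the trace amine-associated receptors of a small subset of OSNs. Per the study's methods all knockout mice descend from 1 double knockout line, made by genome editing of zygotes that carried the enhancer 2 deletion, and the study's text also speaks of mixed backgrounds for several of its lines. The markers were used to ask whether the balance of immature and mature neurons in the whole MOE differed between the genotypes.

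New OSNs arise from basal progenitor cells, extend an axon towards the olfactory bulb, and then build the cilia and the signalling proteins that detect odours. Immature neurons express genes of the growing axon and the cytoskeleton, and mature neurons express Omp and the components of odour transduction. A neuron that matures therefore loses the first group of transcripts and gains the second. In bulk RNA, fewer cells of a type and less RNA per cell cannot be told apart, so each level below is a level in the tissue.

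Total counts ranged from 21423861 to 27712948 per library, and 19078 to 19477 genes had a count. The genotype labels were checked on the 14 olfactory Taar genes, whose summed counts were 34.2 to 36.7 CPM (counts scaled to a common library total) in WT, 30.9 to 36.2 CPM in het and 0.0934 to 0.221 CPM in homo libraries. Libraries of 1 genotype all differed by more than counting noise, with a chi-square of at least 14.5 per degree of freedom. The labels do not say that libraries of 1 group came from separate animals, but the study describes its replicates as littermates, and it is not given which libraries shared a litter. With 24.7 CPM and 580 counts at the lowest, Gng8 was the least counted marker, and the other 6 had at least 5326 counts in every library.

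On the GRCm38 build with GENCODE positions, Gap43 lies on the minus strand of chromosome 16 (chr16:42248442-42340651), Gng8 on the plus strand of chromosome 7 (chr7:16891786-16895436) and Dcx on the minus strand of the X chromosome (chrX:143855842-143933311). Stmn2 lies on the plus strand of chromosome 3 (chr3:8509360-8561606) and Tubb3 on the plus strand of chromosome 8 (chr8:123411424-123422015). Of the mature markers, Omp has a single exon on the minus strand of chromosome 7 (chr7:98143359-98145502), inside the gene Capn5 but with no shared exon, and Stoml3 lies on the plus strand of chromosome 3 (chr3:53488653-53508502). None of the 7 lies on chromosome 10, which holds the Taar cluster. None shares exonic bases with another gene, although Tubb3 lies within the span of the annotated gene Gm20388 on the same strand. The summed exons of all annotated isoforms measure 1522 bp for Gng8, 1523 bp for Gap43, 1868 bp for Tubb3, 2144 bp for Omp, 2150 bp for Stoml3, 5602 bp for Stmn2 and 12647 bp for Dcx.

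Start regions were at hand for 4 of the 7 markers in RefSeq (GRCm38.p6), and the 120 bases before the first base that RefSeq or GENCODE transcribes are shown because they include Gng8 and Tubb3, which varied together across libraries, and Dcx, which did not vary with them, as described below. The regions are chr7:16891666-16891785 (plus strand) for Gng8, chr8:123411304-123411423 (plus strand) for Tubb3, chrX:143933312-143933431 (minus strand) for Dcx and chr3:53488533-53488652 (plus strand) for Stoml3, each written 5′ to 3′ with matches to the letters searched in capitals. Both motifs named below were searched on both strands, TATAA as TATAA or TTATA.
Gng8: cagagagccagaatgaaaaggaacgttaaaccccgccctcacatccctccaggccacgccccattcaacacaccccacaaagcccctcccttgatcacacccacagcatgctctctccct
Tubb3: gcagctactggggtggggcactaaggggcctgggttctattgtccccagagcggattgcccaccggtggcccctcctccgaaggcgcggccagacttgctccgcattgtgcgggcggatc
Dcx: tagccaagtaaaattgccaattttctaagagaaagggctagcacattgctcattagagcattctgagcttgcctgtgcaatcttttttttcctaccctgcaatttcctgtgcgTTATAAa
Stoml3: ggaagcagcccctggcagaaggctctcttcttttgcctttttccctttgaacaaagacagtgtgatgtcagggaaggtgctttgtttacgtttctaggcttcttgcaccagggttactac
The core of homeodomain binding sites, TAATTA, was in 0 of the 4 regions and in 2.09% of all 32851 RefSeq start regions over the 120 bases before the RefSeq start. The TATA-type letters TATAA were in 1 of the 4 regions, that of Dcx, from 7 bases before the GENCODE start, and in 11.8% of all start regions. The regions of Tubb3, Dcx and Stoml3 end 129, 92 and 54 bases before the RefSeq start. They are therefore not the same windows as those behind the 2 shares. G and C made up 67.5% of the bases before Tubb3, 57.5% before Gng8, 48.3% before Stoml3 and 39.2% before Dcx. Gap43, Stmn2 and Omp are named only.

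None of the 5 immature markers differed between homo and WT mice beyond the spread between libraries. Gap43, which encodes a growth-cone protein of extending axons, was at 255, 248 and 349 CPM in the 3 WT libraries, at 267, 244 and 343 CPM in the het libraries and at 274, 236, 283 and 293 CPM in the homo libraries. The highest WT and the highest het library both carried replicate number 3, and the ranges of all 3 genotypes overlapped. The log2 fold change of Gap43 between homo and WT was -0.06 ± 0.13 (SE; adjusted p = 1.00, edgeR's quasi-likelihood test with Benjamini-Hochberg adjustment over all genes), and the 95% interval of the fold ran from 0.793 to 1.16.

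Gng8 encodes a G protein gamma subunit that immature OSNs express before they switch to the gamma subunit of mature neurons. It was at 33.2, 24.7 and 45.0 CPM in WT, at 28.0, 26.9 and 37.7 CPM in het and at 27.1, 30.1, 28.2 and 39.6 CPM in homo libraries. One library in each genotype stood above the rest, WT-3, het-3 and homo-4, and the WT group held both the lowest and the highest value. The log2 fold change between homo and WT was -0.13 ± 0.18 (SE), and the 95% interval of the fold, 0.698 to 1.2, was the widest of the 7.

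Dcx, which encodes a microtubule-binding protein of migrating and young neurons, was at 337, 437 and 428 CPM in WT, at 407, 470 and 402 CPM in het and at 368, 448, 377 and 399 CPM in homo libraries. Within het and homo the library with replicate number 2 was the highest, where Gap43, Stmn2, Tubb3 and Omp were lowest. The homo and WT means were 398 and 401 CPM, and the log2 fold change was the nearest to 0 of the 7, at -0.0035 ± 0.11 (SE) with a 95% interval of the fold of 0.848 to 1.17.

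The cytoskeletal markers Stmn2, a regulator of microtubule stability in growing axons, and Tubb3, a neuron-specific beta tubulin, followed Gap43 from library to library. Stmn2 was at 477, 484 and 570 CPM in WT, at 483, 446 and 555 CPM in het and at 478, 425, 508 and 488 CPM in homo libraries. Tubb3 was at 419, 408 and 541 CPM in WT, at 451, 386 and 530 CPM in het and at 438, 413, 451 and 484 CPM in homo libraries. For both genes WT-3 was the highest of all 10 libraries and het-3 came next, while the 4 homo libraries lay below both. The log2 fold changes between homo and WT were -0.10 ± 0.10 (SE) for Stmn2 and -0.03 ± 0.12 (SE) for Tubb3.

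Neither mature marker passed the test between homo and WT. Omp, the olfactory marker protein that defines mature OSNs, was at 4484, 4249 and 4735 CPM in WT, at 3950, 3572 and 4861 CPM in het and at 4308, 3641, 4547 and 3983 CPM in homo libraries. The het group alone held both the lowest and the highest Omp level of the 10 libraries. The log2 fold change between homo and WT was -0.12 ± 0.11 (SE), with a 95% interval of the fold of 0.783 to 1.08. Omp had the lowest unadjusted p of the 7 in this contrast, 0.299.

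Stoml3, a stomatin-family membrane protein of the OSN cilia, was at 945, 753 and 803 CPM in WT, at 837, 866 and 870 CPM in het and at 808, 715, 825 and 825 CPM in homo libraries. WT held the highest value and homo the lowest, and the het libraries lay close together with a coefficient of variation (CV) of 2.1%. The log2 fold change between homo and WT was -0.07 ± 0.10 (SE). It was the only 1 of the 7 markers whose genotypes did not overlap in a comparison, since the 4 homo libraries, up to 825 CPM, lay below the 3 het libraries, from 837 CPM. Of all genes tested, 3.93% had homo and het ranges that did not overlap. The difference between homo and het was -0.11 ± 0.10 (SE; adjusted p = 0.999, edgeR's quasi-likelihood test), so this order did not pass the test, and het was the group of tightest spread.

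**Figure D1:**
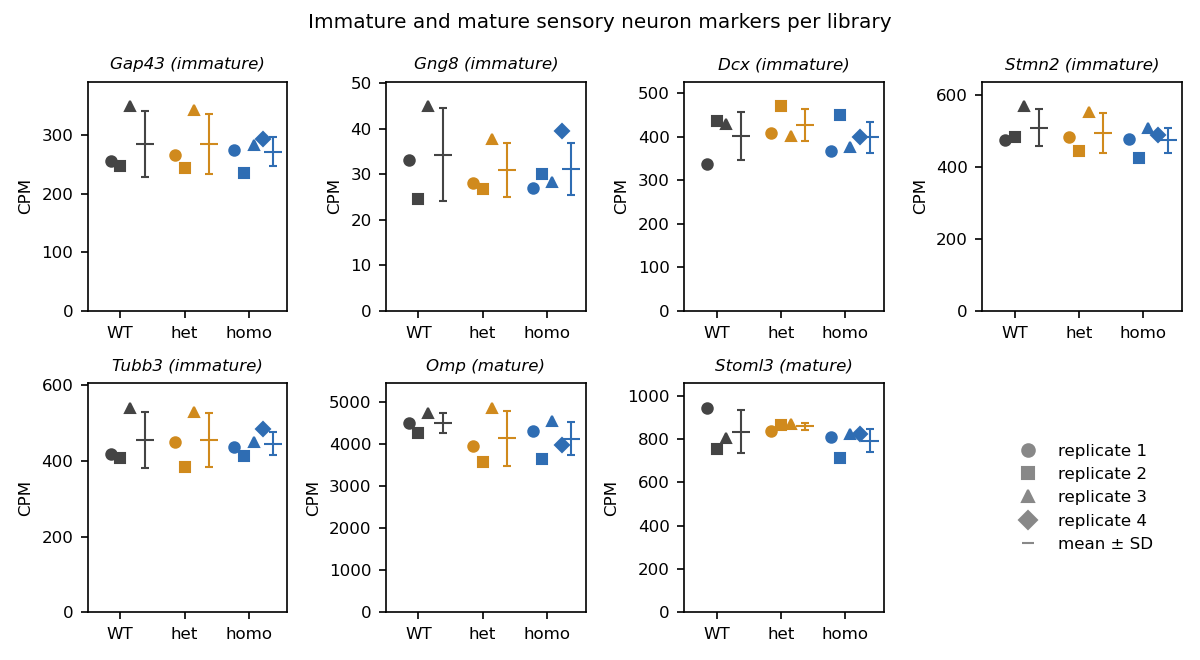
Level of each marker in CPM (vertical axis, from 0) in the WT, het and homo libraries, 1 panel per gene. Point shapes give the replicate number, and the horizontal mark with its bar is the group mean ± SD (n = 3, 3 and 4). The ranges of WT and homo overlap in all 7 panels, and replicate 3 (triangle) of WT and het is the highest or second highest library for Gap43, Stmn2, Tubb3 and Omp.

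In the comparison of homo with WT, 0 of the 7 markers passed an adjusted p of 0.05, beside 12 of 17197 genes tested (0.0698%). All 7 log2 fold changes lay below 0, from -0.13 to -0.0035, with a median of -0.07 against 0.00012 over all genes tested, but every 95% interval included 0 and 0 of the 7 had an unadjusted p under 0.05, as had 2.41% of all genes. The signs are not 7 separate observations, because most markers vary together across libraries. Without the library WT-3 the log2 fold changes of Gap43, Gng8, Dcx and Tubb3 between homo and WT were above 0, at 0.11, 0.11, 0.04 and 0.11. DESeq2 and limma also called 0 of the 7 in each contrast.

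In the comparison of het with WT, again 0 of the 7 passed, and 0 of all genes (0%) were called by edgeR, as by DESeq2 and limma, with 330 genes (1.92%) at an unadjusted p under 0.05. Of the 7 markers, 0 had an unadjusted p under 0.05, and their log2 fold changes ran from -0.15 for Gng8 to 0.09 for Dcx, 4 below and 3 above 0. A fit of these 2 groups with the replicate number as a block called 3 genes and no marker. Between homo and het, 0 of the 7 passed beside 13 of all genes (0.0756%), 0 had an unadjusted p under 0.05 beside 2.48% of all genes, and the log2 fold changes ran from -0.11 for Stoml3 to 0.02 for Gng8. The 3 comparisons share their libraries, so they are not independent of each other.

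The width of the intervals differed between markers. Over the 7 markers, the 95% intervals of the fold ran from 0.698 to 1.2 between homo and WT, from 0.673 to 1.27 between het and WT and from 0.774 to 1.33 between homo and het. The widest were those of Gng8, while between homo and WT the interval of Stmn2 ran from 0.805 to 1.08 and that of Stoml3 from 0.827 to 1.1. A p that misses the threshold does not show that levels were equal.

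**Figure D2:**
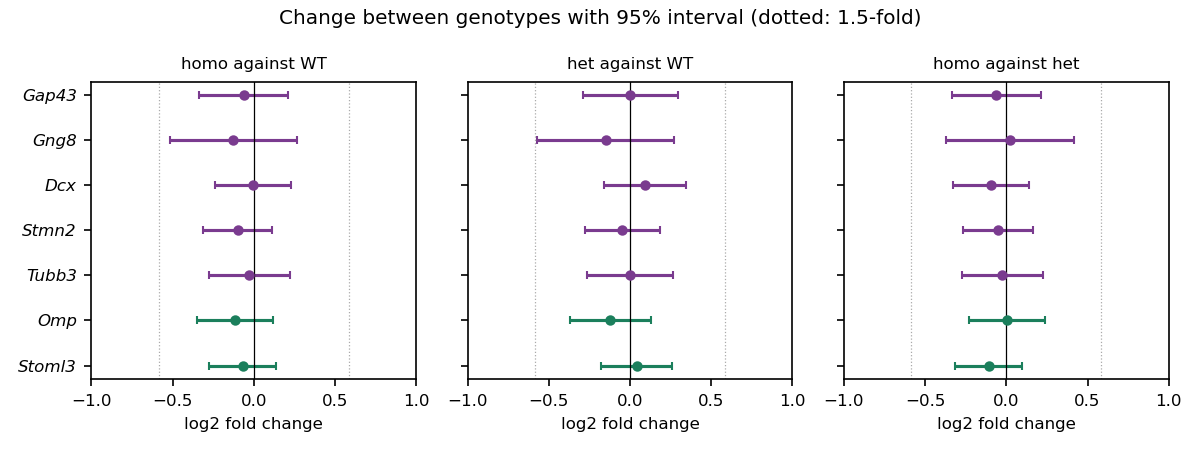
Log2 fold change (horizontal axis) of each marker in the 3 comparisons of genotypes, with the 95% interval from edgeR as a bar and the markers in rows, immature in purple and mature in green. Dotted lines mark a fold of 1.5 in each direction. Every interval includes 0 and all lie inside the dotted lines.

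The balance of the 2 stages was expressed as the summed CPM of the 5 immature markers as a percent of the summed CPM of Omp and Stoml3. The ratio was 28.0, 32.0 and 34.9% in the 3 WT libraries, 34.2, 35.4 and 32.6% in the het libraries and 31.0, 35.6, 30.7 and 35.4% in the homo libraries. WT held the lowest value, and its highest was within the range of het and homo, so the 3 genotypes overlapped. On the log2 scale the 3 WT libraries averaged -1.67 ± 0.16 (SD, n = 3). The het mean was -1.55 ± 0.06 (SD, n = 3), and the homo mean was -1.60 ± 0.12 (SD, n = 4). Homo was above WT by 0.07 and het above WT by 0.11, with a pooled SD of 0.14 and 0.12, and homo lay below het by 0.04. No p is given for this ratio, since its genes were chosen with earlier results in view.

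The 2 sums behind the ratio also overlapped. The 5 immature markers summed to 1522 to 1934 CPM in WT, 1572 to 1867 CPM in het and 1552 to 1704 CPM in homo libraries. Omp and Stoml3 summed to 5002 to 5537 CPM in WT, 4439 to 5731 CPM in het and 4355 to 5372 CPM in homo libraries. In homo the library with the lowest mature sum, homo-2, had the highest ratio, and its immature sum was also the lowest of the 4.

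Ratios of single pairs gave the same picture of overlapping groups. Gap43 was 5.70, 5.83 and 7.38% of Omp in WT, 6.75, 6.83 and 7.05% in het and 6.35, 6.47, 6.23 and 7.35% in homo libraries. Stoml3 was 21.1, 17.7 and 17.0% of Omp in WT, 21.2, 24.3 and 17.9% in het and 18.8, 19.6, 18.1 and 20.7% in homo libraries. Within the mature markers, then, the ratio of Stoml3 to Omp varied more within het than between the group means, which were 18.6% in WT, 21.1% in het and 19.3% in homo.

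The gamma subunits give a second view of the switch from immature to mature signalling, as Gng13 is the gamma subunit of mature OSNs and Gng8 that of immature ones. Gng13 was at 247, 200 and 327 CPM in WT, at 159, 180 and 319 CPM in het and at 192, 147, 247 and 237 CPM in homo libraries. It varied 2.22-fold between the lowest and the highest library, more than any of the 7 markers. Its log2 fold change between homo and WT was -0.32 ± 0.27 (SE; adjusted p = 1.00, edgeR). Gng8 was 13.5, 12.4 and 13.7% of Gng13 in WT, 17.6, 14.9 and 11.8% in het and 14.1, 20.4, 11.4 and 16.7% in homo libraries, and the groups overlapped. Of the 773 bp of Gng13 exons, 399 bp overlap the gene Chtf18 on the opposite strand, and the strand setting of the authors' counting is not given in the sources used here.

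**Figure D3:**
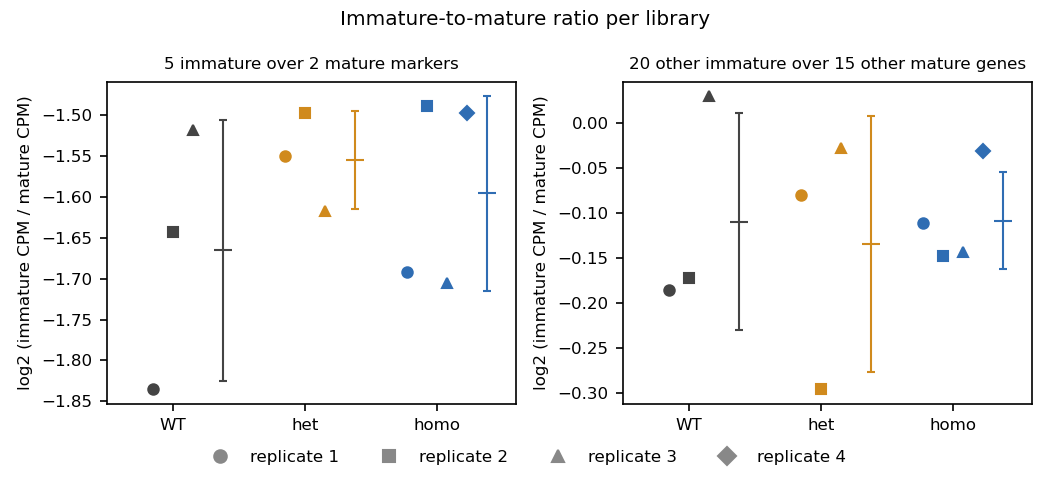
Log2 ratio of summed immature to summed mature CPM (vertical axis) per library in WT, het and homo, for the 7 markers (left) and for the lists of 20 other immature and 15 other mature genes (right). Shapes give the replicate number and bars the mean ± SD. In both panels the 3 genotypes overlap, and het replicate 2 is among the highest libraries on the left but the lowest on the right.

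Levels can be compared between genes only per length, and so CPM were divided by the summed exon length in kb. In WT, Omp was the highest at 2094 ± 113 CPM per kb (SD, n = 3), followed by Stoml3 at 388 ± 46.4 CPM per kb. Tubb3 at 244 ± 39.7 CPM per kb and Gap43 at 187 ± 37.1 CPM per kb came next and their ranges overlapped. Stmn2 followed at 91.1 ± 9.24 CPM per kb. Dcx at 31.7 ± 4.36 CPM per kb and Gng8 at 22.5 ± 6.71 CPM per kb were the lowest, and the ranges of this pair overlapped. The lengths sum the exons of all isoforms, so a gene expressed mainly as a short isoform is ranked too low.

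The order by level was the same in het and homo. Omp was at 1925 ± 309 CPM per kb in het and 1921 ± 184 CPM per kb in homo libraries, and Gng8 at 20.3 ± 3.90 and 20.5 ± 3.75 CPM per kb. The spread within a genotype was wider for some markers than others. In WT the CV ran from 5.41% for Omp to 29.8% for Gng8, and in homo it ran from 6.63% for Tubb3 to 18.3% for Gng8.

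Most markers varied together across the libraries of all genotypes. Over the 10 libraries the log2 CPM of Gap43 and Tubb3 had a Pearson r of 0.97, Gap43 and Stmn2 of 0.94 and Stmn2 and Tubb3 of 0.88. Immature and mature markers also varied together, with an r of 0.87 between Stmn2 and Omp and of 0.75 between Gap43 and Omp. All 15 pairs of markers without Dcx had a positive r, from 0.11 to 0.97. All 6 pairs with Dcx had a negative r, from -0.56 with Stoml3 to -0.11 with Gng8. These values describe 10 libraries in which the genes share depth and library preparation, and no p is attached to them. By this measure Dcx did not vary with the other 4 immature markers, so the 5 immature genes did not form 1 group, and Gap43 varied with Omp as well as with Tubb3.

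A property of the libraries moved with this pattern. For each library the median deviation of the genes in the top quartile of exon length, 6420 bp or more, was set against that of the bottom quartile, up to 2573 bp. The offset of long against short genes was 0.21 in homo-2, 0.13 in het-2 and 0.07 in het-1 on the log2 scale, and it was -0.14 in het-3, -0.12 in homo-3 and -0.12 in WT-3. It lay between -0.04 and 0.03 in the other 4 libraries. The libraries homo-2 and het-2 had the highest Dcx, the marker with the longest exons, and low Gap43, Tubb3 and Omp. Dcx was nearly as high in WT-2, at 437 CPM with an offset of 0.0062, and in WT-3, at 428 CPM with an offset of -0.12. WT-3 and het-3 were the libraries with high Gap43, Stmn2 and Tubb3, while homo-3, with a like offset, had 283 CPM of Gap43.

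Correcting each library for its trend with exon length, an alternative chosen after the data were seen, moved pairs with Dcx and pairs with Stoml3 and lowered some other pairs. After correction the r of Dcx with Gap43 was 0.30, with Tubb3 0.25 and with Stmn2 0.24, against -0.16, -0.15 and -0.21 before. The r of Dcx with Stoml3 stayed negative at -0.49. Gap43 and Tubb3 kept an r of 0.95 and Stmn2 and Omp of 0.88. Lower values followed for Stmn2 and Tubb3 (0.88 to 0.68) and for Gng8 and Stmn2 (0.64 to 0.41). The r of Omp fell from 0.75 to 0.59 with Gap43 and from 0.69 to 0.50 with Tubb3. The pairs of Stoml3 with Omp, Gap43, Stmn2 and Tubb3 were at -0.02, -0.11, -0.05 and -0.20 after correction. The corrected fit called 0 of the 7 markers in each comparison, and it moved the log2 fold change of Tubb3 to 0.01 between homo and WT and to 0.02 between het and WT. Whether the length trend accounts for the shared variation was not tested.

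**Figure D4:**
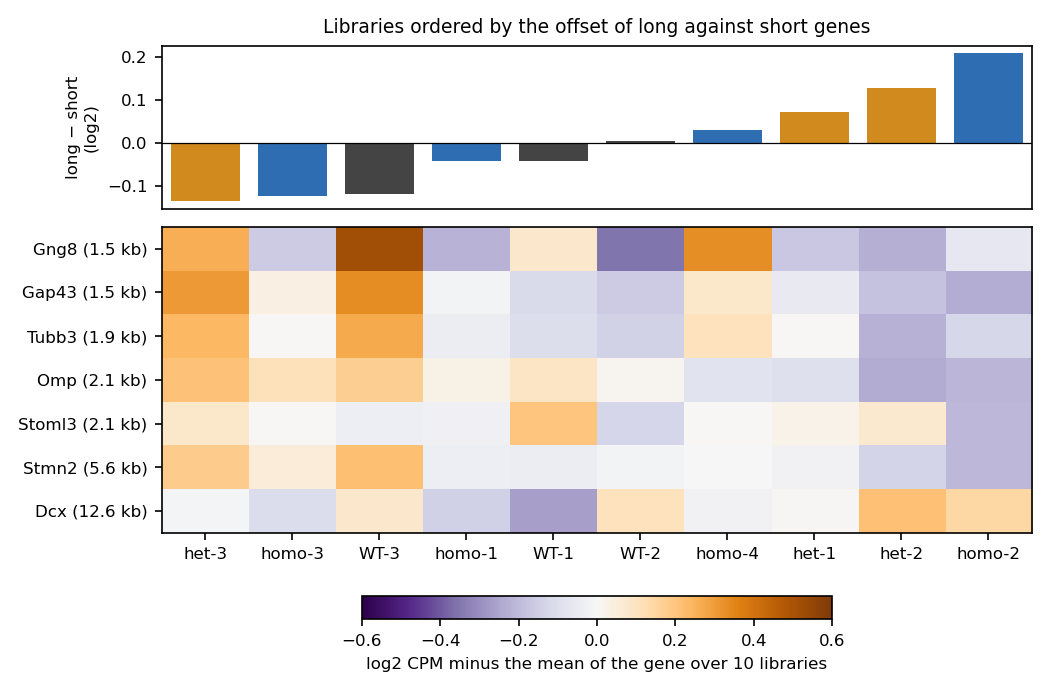
Top, offset of the top against the bottom quartile of exon length per library on the log2 scale, with libraries ordered by it and coloured by genotype (WT dark grey, het orange, homo blue). Bottom, log2 CPM of each marker minus its mean over the 10 libraries, with markers ordered by exon length. Dcx, at 12.6 kb, is high in het-2 and homo-2 at the right end, where the offset is 0.13 and 0.21, and Gap43, Tubb3 and Omp are low there. Dcx is nearly as high in WT-2 and in WT-3, where the offset is 0.0062 and -0.12.

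The genes most like Gap43 across the 10 libraries, among 11261 genes with a mean of at least 10 CPM, were Rtn2 (r = 0.98), Cdca3 (r = 0.97), Nsmce2 (r = 0.97), Tuba1a (r = 0.97) and Trappc1 (r = 0.96). Of these Tuba1a is an alpha tubulin of young neurons. Genes most like Omp included Fau (r = 0.98), Mrpl12 (r = 0.97), Tmem261 (r = 0.97) and 2210013O21Rik (r = 0.96). Fau encodes a ribosomal protein fusion and Mrpl12 a mitochondrial ribosomal protein, and their summed exons measure 0.961 and 1.53 kb. For Dcx, looked up after its values were seen, the 5 nearest genes were Smc5, Rlf, Morc3, Akap17b and Uvssa, with exons of 5.43 to 9.49 kb and an r of 0.95 to 0.97. Of the genes nearest to Gap43, Rtn2 at 4.58 kb, Nsmce2 at 3.31 kb and Cdca3 at 2.87 kb had longer exons than Gap43 itself, and Tuba1a and Trappc1 measured 1.8 and 1.11 kb.

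For other genes of immature OSNs no difference passed the test either. Of 20 growth-cone, tubulin and early neuronal genes, 20 were tested and 0 passed in any of the 3 comparisons, with 0 at an unadjusted p under 0.05. Between homo and WT, 14 had a log2 fold change below 0 and 6 above, with a median of -0.03. The lowest were the actin-binding kinase C substrates Marcksl1, at -0.16 ± 0.12 (SE), and Marcks, at -0.13 ± 0.11 (SE). The highest were Ablim1, an actin-binding protein, at 0.10 ± 0.09 (SE), and Dpysl5, a collapsin response mediator of axon guidance, at 0.04 ± 0.13 (SE).

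Other genes of mature OSNs gave a like result. Of 15 genes of odour transduction, receptor transport and the synapse, 15 were tested and 0 passed in any comparison, with 0 at an unadjusted p under 0.05. Between homo and WT, 10 lay below 0 and 5 above, with a median log2 fold change of -0.01. After Gng13, the lowest was S100a5, a calcium-binding protein of active OSNs, at -0.15 ± 0.14 (SE). The highest were Cnga2, a subunit of the cyclic nucleotide-gated ion channel, at 0.08 ± 0.10 (SE), and Umodl1, a mature OSN membrane protein, at 0.06 ± 0.09 (SE). The log2 ratio of the summed immature to the summed mature list differed between homo and WT by 0.0011, between het and WT by -0.02 and between homo and het by 0.03.

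Markers of other cells in the tissue bear on the immature genes, since Dcx, Stmn2, Tubb3 and Gap43 are also expressed by other neurons. Progenitor markers (7 genes) summed to 412 to 421 CPM in WT, 388 to 434 CPM in het and 411 to 429 CPM in homo libraries, and 0 of the 7 passed in any comparison. Set against WT, homo libraries had 1 progenitor gene at an unadjusted p under 0.05 by edgeR (Sox2, log2 fold change -0.22), beside 2.41% of all genes. For het libraries it was Top2a (0.18), beside 1.92% of all genes. Both genes were named after their values were seen. The 7 progenitor genes did not share a direction. In homo libraries 3 lay above WT and 4 below, and in het libraries 2 lay above and 5 below. Olfactory bulb markers (5 genes, none at 0 in every library) summed to 24.0 to 28.1 CPM in WT, 24.0 to 34.6 CPM in het and 27.2 to 39.2 CPM in homo libraries. Between homo and WT all 5 lay above 0, 3 had an unadjusted p under 0.05 (2.41% of all genes did), and 0 passed after adjustment by edgeR.

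Of the 5 bulb markers, Gad1 and Slc32a1 stood out in 4 libraries. Gad1, the GABA-synthesizing enzyme, had 34 counts in het-3, 69 in homo-1, 72 in homo-3 and 173 in homo-4, against 5 to 17 in the other 6 libraries. Slc32a1, the vesicular GABA transporter, had 15, 11, 15 and 36 counts in the same 4 libraries and 0 or 1 in the others. The counts of the remaining bulb markers overlapped between the 4 libraries and the others. Gad2 had 236 to 398 against 236 to 281, Tbr1 38 to 63 against 31 to 54 and Eomes 312 to 426 against 252 to 365. For Gap43 the same 4 libraries were at 343 CPM in het-3, 293 CPM in homo-4, 283 CPM in homo-3 and 274 CPM in homo-1. All 4 lay above the other libraries, at 236 to 267 CPM, except WT-3 at 349 CPM. For Dcx they were at 402, 399, 377 and 368 CPM, against 337 to 470 CPM in the others. Stmn2, Tubb3 and Gng8 did not split the libraries as Gap43 did. Their levels in homo-1 were 478, 438 and 27.1 CPM. Outside the 4 libraries and WT-3, they reached 484 CPM (WT-2), 451 CPM (het-1) and 33.2 CPM (WT-1). Without these 4 libraries, homo-2 is the only homo library, and it had the highest offset of long against short genes, 0.21. The log2 fold change between homo and WT was then 0.19 for Dcx, while all other markers lay below 0. It was -0.24 for Gap43, -0.16 for Gng8, -0.24 for Stmn2, -0.12 for Tubb3, -0.28 for Omp and -0.20 for Stoml3. The lone homo library is then assumed to vary like the other groups. The part of bulb RNA in the marker levels was not tested.

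The remaining cell types gave no call either. Between homo and het, 1 of 4 horizontal basal and 1 of 2 vomeronasal genes tested had an unadjusted p under 0.05, beside 2.48% of all genes. These were Icam1 (log2 fold change 0.41, means of 7.06 and 5.33 CPM) and Calr4 (0.43, means of 3.51 and 2.61 CPM). Markers of horizontal basal cells (4 genes) summed to 114 to 142 CPM and those of ensheathing glia (5 genes) to 314 to 417 CPM over all libraries. Sustentacular cell markers (5 genes) summed to 9637 to 11437 CPM. The vomeronasal list (5 genes) summed to 320 to 406 CPM and was carried by Gnao1, which other neurons express, while Trpc2 had 1 count in all libraries together and Vmn1r43 was at 0 throughout. Of the 5 blood genes, the 4 globin genes listed were at 0 in every library. The remaining gene, Alas2, was present, with means of 19.8 CPM in WT, 19.1 CPM in het and 13.5 CPM in homo libraries.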

How the data were processed

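RNA-seq of whole MOE gave 10 libraries, grouped by the genotype in the sample titles (3 WT, 3 het, 4 homo). Per the study's methods and the submitters' processing notes, the authors made directional libraries after poly(A) bead selection (NEBNext Ultra Directional), trimmed reads with Trimmomatic 0.36, aligned them to mm10 (GRCm38) with HISAT2 2.1.0 and counted them per gene with featureCounts of Subread 1.6.2. The deposited raw counts were used for the tests. A second deposited table holds a normalized signal, the counts divided by 1 DESeq2 1.20.0 size factor per library, and served only as an alternative. The gene annotation, the strand option and how reads that align more than once were counted are not given in the sources used here. Of the names in the count table, 27 were dates made by a spreadsheet program from gene symbols.

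The tests were run with edgeR 4.0.16 in R 4.3.3. Low genes were removed by filterByExpr (at least 10 counts, at least 15 in total, by genotype), TMM scaling was applied, and a robust quasi-likelihood model with genotype as the only term was fitted to all 10 libraries, which share 1 estimate of the spread. Two-sided p-values received a Benjamini-Hochberg adjustment across the whole table, with a threshold of 0.05. The common biological coefficient of variation was 13.9%. CPM are raw counts scaled to the library total. Correlations used log2(CPM + 1). Exon lengths and positions came from GENCODE release 21 of the mouse annotation, and 96.2% of genes tested had a length. The length correction used a loess fit (span 0.5) of the deviation of each library on log2 exon length as an offset. The code was tested on simulated data. Alternatives were DESeq2 1.42.0 and limma 3.58.1 (limma-trend), other scalings and filters, a replicate block, and leaving out libraries.

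The members and gene lists were chosen with earlier results of these data known. By the rule for named genes the text names the 7 markers, Gng13, the 2 lowest and 2 highest genes by log2 fold change between homo and WT in the lists of other immature and other mature genes, and the 5 genes most correlated with Gap43 and with Omp, of which 1 is not reported here. The genes nearest to Dcx, the genes of the bulb, progenitor, horizontal basal, vomeronasal and blood lists that are named and the length trend were picked after seeing the values.

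WT and het libraries with the same replicate number deviated together over genes (r = 0.403, 0.438 and 0.346). The labels do not say what a number marks, so whether the numbers pair the samples is not known. Homo libraries were not paired in this way with WT (r from -0.103 to 0.0355) or with het (r from -0.160 to 0.244).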

Additional observations from a re-analysis of the deposited data

Results flagged for a closer look

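Of 25 values checked in the group of 4 homo libraries, 1 stood apart by Dixon's criterion at 95%, about as many as the 1 in 20 that chance gives. This was Stoml3, at 715 CPM in homo-2 against 808 to 825 CPM in the other 3 homo libraries. The same library had the highest offset of long against short genes, 0.21 on the log2 scale, and the part of that offset in the Stoml3 level was not tested. Without homo-2 the log2 fold change of Stoml3 was -0.03 between homo and WT and -0.07 between homo and het, and neither was called.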

How the results depend on the processing

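All 7 markers stayed uncalled in all 23 fits, and the smallest adjusted p of a marker in the 3 comparisons was 0.673 (Omp). For 16 of the 21 fold changes (between homo and het Gng8 and Stoml3 alone), 316 alternative values kept their sign and 36 did not. All 47 alternative ratio differences moved by less than the pooled SD, and with the replicate block the ratio differed by -0.0737 for homo against het, 0.0366 for homo against WT and 0.110 for het against WT.

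The direction of the ratio difference was not stable between homo and het, and between homo and WT it turned only without WT-1. Between het and WT the difference stayed above 0 in every alternative, from 0.0254 to 0.215, and was 0.0268 with the mean of log2 CPM per gene. The ratio of the lists of other immature and other mature genes was not among these alternatives. It went the other way between het and WT, at -0.02. The difference between homo and WT was -0.0153 without WT-1 and 0.143 without WT-3, that between het and WT was 0.0254 and 0.184 without the same libraries, and leaving out homo-2 or homo-4 brought homo against WT to 0.0339 and 0.0366 and homo-3 to 0.106. Homo against het ran from -0.0764 (without homo-2) to -0.0041 (without homo-3) and was 0.0130 with the mean of log2 CPM per gene and 0.0349 without the 4 libraries named below.

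Signs of genes turned as well, Gng8 among them, whose fold changes from WT were the farthest from 0. With the replicate block, Dcx was at 0.0084 (all genotypes) and 0.0094 (2 groups alone) between homo and WT, and Gng8 at -0.0713 and -0.0838 between homo and het. The length correction put Tubb3 at 0.0115 (homo against WT) and 0.0248 (het against WT). The settings that leave out 2 or 4 libraries were chosen after seeing the data. Without WT-3 and het-3, values between homo and WT were 0.11 for Gap43, 0.11 for Gng8, 0.0406 for Dcx and 0.11 for Tubb3, and Tubb3 was at 0.0177 between het and WT. Without the 4 libraries with over 10 Slc32a1 counts, Dcx was at 0.19 between homo and WT and Gap43 at -0.15 between het and WT.

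Leaving out 1 library at a time, values between homo and WT ran from -0.16 to 0.11 for Gap43, -0.32 to 0.11 for Gng8, -0.12 to 0.0585 for Dcx, -0.11 to 0.11 for Tubb3 and -0.14 to 0.0296 for Stoml3. Between het and WT they ran from -0.14 to 0.17 for Gap43, -0.34 to 0.0825 for Gng8, -0.0176 to 0.16 for Dcx, -0.13 to 0.0316 for Stmn2, -0.11 to 0.13 for Tubb3 and -0.0264 to 0.14 for Stoml3. Between homo and het Gng8 ran from -0.10 to 0.18. Among the fits that left out 1 library, only that without WT-3 turned the signs of Gap43, Gng8 and Tubb3 between homo and WT.

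Counts over all genes moved more than the markers did. The replicate block called 19 genes between homo and WT in either form, 3 between het and WT in the 2 groups alone, and 24 (all genotypes) or 31 (2 groups alone) between homo and het. Without the 4 libraries 27 genes were called between homo and WT and 1 between het and WT. The cause was not tested. With 3 or 4 libraries a group and a common coefficient of variation of 13.9%, the width of the intervals differed between markers.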
